A study of Mus musculus with 12 samples.

Results

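Tetrahydrobiopterin (BH4) is the cofactor that nitric oxide (NO) synthases need, and 6 genes of its synthesis and recycling (Gch1, Gchfr, Pts, Spr, Qdpr and Pcbd1) were followed here together with Nos2, which codes for inducible NO synthase (iNOS). These 7 of the 29428 genes in the deposited table were taken by gene name. Gch1 and Nos2 had been selected on their own values in these libraries, because their response to treatment differed between the 2 cell lines, so their values are described without a test. The question was whether the other genes of the cofactor pathway also responded differently.

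RNA was sequenced from STHdhQ7/Q7 and STHdhQ111/Q111 cells, immortalized striatal lines of knock-in mice whose huntingtin carries 7 and 111 glutamines, respectively, on both alleles. Cells of each line were left nontreated (Q7-C and Q111-C) or were given murine interferon-gamma (IFNγ, 100 ng/mL) together with lipopolysaccharide (LPS, 5 μg/mL) and harvested after 24 h (Q7-T and Q111-T). Each of the 4 groups has 3 libraries, and all cells grew in the same serum-containing medium at the permissive temperature. There is 1 line for each genotype, so polyglutamine length and other differences between the lines cannot be told apart, and IFNγ and LPS were given only together. The study calls the libraries of a group biological replicates, and the labels do not say whether they came from separate cultures, so the spread between them may be partly technical.

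BH4 is made from GTP. GTP cyclohydrolase I (GCH1) makes dihydroneopterin triphosphate in the step that usually limits the rate, PTS converts this to 6-pyruvoyl-tetrahydropterin, and SPR carries out the final reductions. GFRP, the product of Gchfr, binds GCH1 and mediates its feedback inhibition by BH4 and its stimulation by phenylalanine. PCBD1 and QDPR regenerate BH4 after the aromatic amino acid hydroxylases have used it. Inflammatory cytokines and LPS are known to raise Nos2 and Gch1 in many cell types, and iNOS that lacks BH4 makes less NO.

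The 250 bases upstream of the annotated start are shown for Gch1 and Gchfr, the genes of the enzyme and of its regulatory protein, because the levels of these 2 are compared within each library. The windows are from RefSeq (GRCm38.p6), which had an entry for 6 of the 7 genes. They lie at chr14:47189414-47189663 (minus strand) and chr2:119167538-119167787 (plus strand), run 5′ to 3′ and have a G+C content of 59.2% and 66.4%. Positions are counted from the RefSeq start, which for Gchfr, Pts, Spr and Qdpr lies within the gene span given with the deposited values. For Gchfr that span starts at 119167773, so the last bases of its printed window lie inside the gene. Capitals mark matches to the motifs searched.
Gch1: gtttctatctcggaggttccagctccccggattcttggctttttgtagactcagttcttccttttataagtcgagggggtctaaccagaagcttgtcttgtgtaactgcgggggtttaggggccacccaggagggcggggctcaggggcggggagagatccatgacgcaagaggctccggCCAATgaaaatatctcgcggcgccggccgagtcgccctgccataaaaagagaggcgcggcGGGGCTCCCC
Gchfr: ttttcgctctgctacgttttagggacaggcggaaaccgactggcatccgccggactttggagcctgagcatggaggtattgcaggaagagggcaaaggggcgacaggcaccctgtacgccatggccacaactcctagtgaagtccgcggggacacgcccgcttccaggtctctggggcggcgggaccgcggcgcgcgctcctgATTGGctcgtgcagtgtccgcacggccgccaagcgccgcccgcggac

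Both strands of these windows were searched for 5 motifs. These were the ISRE core GAAANNGAA (bound by interferon-regulated factors, in 7.13% of all 32851 windows of this length), the GAS element TTCNNNGAA (named for activation by IFNγ, 7.02%), an NF-kB site (7.25%), the cAMP response element TGACGTCA (1.55%) and the CCAAT box (33.8%). The Gch1 window held an NF-kB site at -10 to -1 and a CCAAT box at -70 to -66, counted from the start. The Gchfr window held a CCAAT box on the opposite strand (printed as ATTGG) at -47 to -43. The Qdpr window held this box at -244 to -240 and at -65 to -61, and the windows of Pts, Spr and Pcbd1 held none of the 5 motifs. A match is a run of letters and not a measured binding site, and the absence of one says nothing about a factor.

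The libraries held between 57505990 and 96417834 estimated counts. Q7-T replicate 2 lay nearest to Q7-C replicate 1 (distance 113.6 over all tested genes) and farther from its own group (mean 131.2), and the deviations of these 2 libraries from their group means moved together (r = 0.64 across genes, which are not independent replicates). Deviations of Q111-T replicate 2 also went with those of Q7-C replicate 1 (r = 0.47) and of Q7-T replicate 2 (r = 0.33). Its mean distance to its own group was 75.2, against 61.3 and 64.9 for Q111-T replicates 1 and 3. Results that moved most without Q7-C replicate 1 and Q7-T replicate 2 are given with and without these libraries. Of the neuronal markers, Tubb3 and Map2 were expressed, but Snap25 and Syt1 were at 0 in every Q7 library and under 0.1 TPM in every Q111 library (TPM is the relative number of transcripts after scaling for their length and for the library). Tubb3 rose with treatment in Q7 (log2 fold change 2.29, edgeR adjusted p = 1.17e-04) and Q111 cells (2.77, edgeR adjusted p = 1.53e-05) and was called lower in Q111-C versus Q7-C (-2.46, edgeR adjusted p = 2.98e-05). Map2 fell with treatment in Q7 cells (-1.80, edgeR adjusted p = 0.00868) and was at 0.02 in Q111 cells (edgeR adjusted p = 0.990). Mesenchymal markers summed to 4195 to 4761 TPM for Q7-C, 3270 to 3679 for Q7-T, 3459 to 3602 for Q111-C and 1474 to 1580 for Q111-T. Of these, Col1a1 and Col1a2 were called higher in Q111-C versus Q7-C (1.25 and 3.81, edgeR adjusted p = 5.33e-05 and 1.26e-07) and Acta2 was lower (-5.59, edgeR adjusted p = 7.97e-07). Both collagen genes fell with treatment in both lines, by 1.45 and 1.65 on the log2 scale in Q7 and by 1.49 and 2.56 in Q111 cells (edgeR adjusted p at most 5.70e-05). Vim, the most abundant of this list, went from 2462 ± 57.9 to 1186 ± 34.0 TPM in Q111 cells (-0.95, edgeR adjusted p = 0.00403) and from 2493 ± 158.0 to 1848 ± 127.5 TPM in Q7 cells (-0.22, edgeR adjusted p = 0.667), and Acta2 was at 0.13 and -0.37 with treatment in Q7 and Q111 cells (edgeR adjusted p = 0.887 and 0.451). Of 9 macrophage or microglia markers 2 (Cd68 and Tmem119) passed the filter on low values, Ptprc was at 0 in all libraries of Q7-T, Q111-C and Q111-T, and the summed level was 17.8 to 20.6 TPM for Q7-C, 11.9 to 18.2 for Q7-T, 31.9 to 37.0 for Q111-C and 46.0 to 62.5 for Q111-T. Within this sum Cd68 was highest in Q111-T (48.8 ± 8.58 TPM, mean ± SD, n = 3). Cd68 was called higher in Q111-T versus Q111-C (log2 fold change 1.81, edgeR adjusted p = 0.00530) and versus Q7-T (1.55, edgeR adjusted p = 0.00688). In Q7 cells its change with treatment was 1.01 (edgeR adjusted p = 0.187). Tmem119 moved the other way with treatment in both lines, from 12.3 ± 0.630 to 3.14 ± 0.193 TPM in Q7 cells (log2 fold change -1.78, edgeR adjusted p = 4.29e-04) and from 18.7 ± 1.40 to 5.13 ± 0.558 TPM in Q111 cells (-1.77, edgeR adjusted p = 1.86e-04), and the part of these markers and of those that follow in the results was not tested. The 4 astrocyte markers summed to under 2 TPM in every library, and the 1 that passed the filter, Aldh1l1, was lowest in Q111-C and highest in Q111-T, as Gch1 was. It was at 0.364 ± 0.151 TPM for Q7-C, 0.417 ± 0.243 for Q7-T, 0.0384 ± 0.0665 for Q111-C and 1.32 ± 0.280 for Q111-T. Aldh1l1 reached 0.5 TPM only in the Q111-T libraries and in Q7-T replicate 2 (0.685 TPM). It thus passed the filter through the group where it was high, and its values are described without a test. In the Q111-C libraries it had 0, 0 and 20 estimated counts. The other astrocyte markers were under the filter. Gfap was also lowest in Q111-C (0.0590 TPM) and highest in Q111-T (0.246 TPM), but S100b was highest in Q111-C (0.333 TPM) and Aqp4 in Q7-T (0.0362 TPM). All 3 endothelial markers were under the filter. Tek (0.213, 0.276, 0.0253 and 0.604 TPM) and Cdh5 (0.0228, 0.280, 0.0145 and 0.331 TPM) had the same order of groups as Aldh1l1. Pecam1 did not, being lowest in Q7-C (0.0264 TPM) and highest in Q7-T (0.273 TPM). Of the 5 striatal projection neuron markers, Drd1 and Drd2 were not matched by name and Adora2a was under the filter. Penk and Ppp1r1b reached 0.5 TPM only in Q111 libraries. They thus passed the filter through the line where they were high, and are described without a test. Penk was at 4.93 ± 0.793 TPM in Q111-C and 0.143 ± 0.248 in Q7-C, and Ppp1r1b at 1.12 ± 0.162 and 0.303 ± 0.0917. In bulk RNA a change in the number of cells that express a gene and a change in RNA per cell cannot be told apart.

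Gch1 was low only in nontreated Q111 cells. Its level was 5.50, 6.09 and 5.14 TPM in the Q7-C libraries 1 to 3 and 6.53, 4.22 and 4.92 TPM in the Q7-T libraries. In Q111-C it was 0.637, 1.04 and 0.360 TPM, and in Q111-T 7.83, 7.24 and 6.54 TPM. All Q111-C libraries lay under every other library, and Q7-C and Q7-T overlapped. The Q111-T libraries lay above the others only barely, with Q111-T replicate 3 at 6.535 and Q7-T replicate 1 at 6.532 TPM. On the fitted log2 scale the treated lines differed by 0.07 (SE 0.31), and by -0.05 without Q7-T replicate 3. Non-overlap held for 51.4% of all genes in Q111-C versus Q7-C, 49.6% in Q111-T versus Q111-C and 46.3% in Q111-T versus Q7-T. The mean of Q7-C was 8.22 times that of Q111-C, and the ratio of the treated to the nontreated mean was 10.6 ± 5.41 in Q111 cells (SD propagated) and 0.937 ± 0.227 in Q7 cells. The order of the group means was Q111-C (0.678 ± 0.340 TPM), Q7-T (5.22 ± 1.19), Q7-C (5.58 ± 0.478) and Q111-T (7.20 ± 0.649), in which the 2 Q7 groups did not differ beyond their spread. Gch1 (ENSMUSG00000037580, chr14:47153895-47189413, minus strand, GRCm38) shares part of its span with Gm18811 on the same strand and Gm49134 on the opposite strand, and whether the counting used strand is not given in the sources used here.

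Nos2 was low in both nontreated lines and higher in every treated library. Its level was 0.733, 2.58 and 1.23 TPM in Q7-C and 0.967, 1.26 and 2.35 TPM in Q111-C, so the nontreated lines overlapped. After treatment it was 140.3, 43.8 and 146.0 TPM in Q7-T and 816.9, 497.6 and 759.1 TPM in Q111-T. Every Q111-T library lay above every Q7-T library, and the lowest value of each treated group was in its replicate 2. Non-overlap held for 46.3% of all genes between the treated lines, and between treated and nontreated groups for 14.4% in Q7 and 49.6% in Q111 cells. The ratio of treated to nontreated means was 72.7 ± 59.5 in Q7 cells and 453.3 ± 243.4 in Q111 cells, and the mean of Q111-T was 6.28 ± 3.62 times that of Q7-T. The nontreated means are near 1 TPM, so these folds have wide errors. Nos2 (ENSMUSG00000020826) lies at chr11:78920787-78960254 on the plus strand.

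The 2 genes therefore differed in where the lines parted. On the fitted log2 scale, where estimated counts were scaled between libraries by TMM, Q111-C minus Q7-C was -3.37 (SE 0.34) for Gch1 and -0.25 (SE 0.42) for Nos2. Q111-T minus Q7-T was 0.07 (SE 0.31) for Gch1 and 2.34 (SE 0.42) for Nos2. The interaction, which is the response to treatment in Q111 cells minus that in Q7 cells, was 3.44 (SE 0.45) for Gch1 and 2.59 (SE 0.59) for Nos2. For Gch1 it came with a difference between the nontreated groups, and for Nos2 with a difference between the treated ones. Without Q7-C replicate 1 and Q7-T replicate 2 the interaction was 3.42 for Gch1 and 2.60 for Nos2. Over all alternative fits it ranged from 2.40 to 3.835 for Gch1 and from 2.03 to 3.02 for Nos2. Q111-C minus Q7-C ranged from -3.75 to -1.99 for Gch1. The smallest sizes for Gch1 came from limma on log2(TPM + 1).

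**Figure D1:**
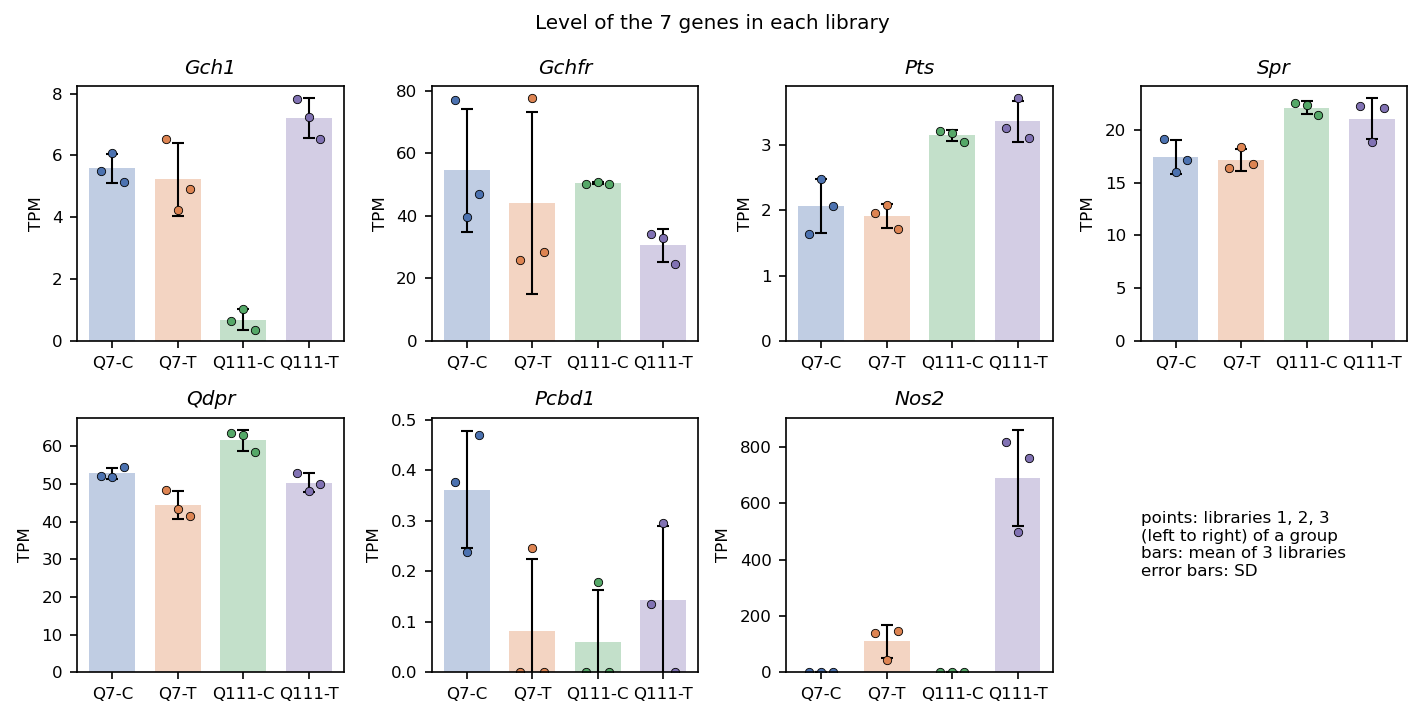
Level of the 7 genes (TPM, linear axis from 0) in the 4 groups, with a point for each library, bars for the mean of 3 libraries and error bars for the SD. Gch1 is low only in Q111-C (0.678 TPM), Nos2 is highest in Q111-T (691.2 TPM), and the Gchfr values of Q7-C replicate 1 (77.0 TPM) and Q7-T replicate 2 (77.7 TPM) lie above those of the other libraries.

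Of the other 5 genes, 4 passed the filter of at least 0.5 TPM in at least 3 libraries (Gchfr, Pts, Spr and Qdpr), and none of the 4 showed a line-dependent response that passed the test. The test was the quasi-likelihood test of edgeR, with p-values adjusted by Benjamini-Hochberg over all 16127 genes tested, and a gene was called at an adjusted p under 0.05. The interaction was called for 0 of 4 genes, with 0 at an unadjusted p under 0.05 by edgeR, and with 0 adjusted calls by DESeq2 and limma. Among all genes tested, 3.94% were called higher and 1.75% lower in the interaction, and 4.71% were called with a difference of at least 2-fold. The estimates were -0.63 for Gchfr (95% interval -2.37 to 1.10, adjusted p = 0.719), 0.04 for Pts (-0.76 to 0.85, adjusted p = 0.973), -0.17 for Spr (-0.94 to 0.60, adjusted p = 0.842) and -0.15 for Qdpr (-0.76 to 0.46, adjusted p = 0.819). The intervals of Pts, Spr and Qdpr lie within a 2-fold difference in either direction, while that of Gchfr does not.

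Treatment alone also gave 0 called genes of 4 in either line. In Q7 cells (Q7-T versus Q7-C), edgeR gave 0 genes at an unadjusted p under 0.05, and DESeq2 and limma called 0 genes after adjustment. The background in this comparison was 3.61% of all genes called higher, 1.74% lower and 4.04% changed at least 2-fold. In Q111 cells (Q111-T versus Q111-C), edgeR again gave 0 genes at an unadjusted p under 0.05, DESeq2 and limma called 0 after adjustment, and limma on log2(TPM + 0.5) had 1 (Qdpr) at an unadjusted p under 0.05. The background there was 11.3% higher, 7.33% lower and 11.2% at least 2-fold.

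The lines also did not differ in a called gene of the 4 at either treatment. In Q111-C versus Q7-C, edgeR gave 0 genes also at an unadjusted p under 0.05, DESeq2 and limma called 0 after adjustment, and limma had 2 (Pts and Spr) at an unadjusted p under 0.05. Of all genes, 11.1% were called higher, 11.6% lower and 15.2% at least 2-fold. In Q111-T versus Q7-T, edgeR gave 0 genes at either threshold, DESeq2 had 0 after adjustment and 1 (Gchfr) at an unadjusted p under 0.05, and limma called 1 (Pts). Of all genes, 19.8% were called higher, 18.7% lower and 24.5% at least 2-fold. With 4 genes tested, a count of 0 does not set them apart from all genes.

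**Figure D2:**
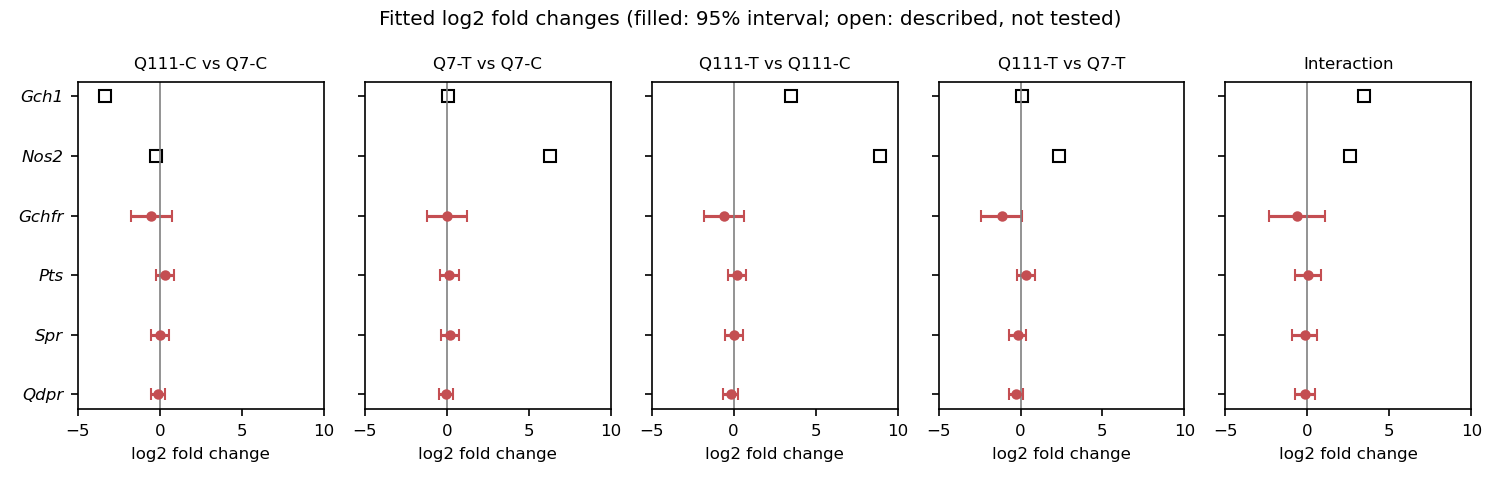
Fitted log2 fold change (horizontal axis) of 6 genes in the 4 pairwise comparisons and the interaction, with filled circles and 95% intervals for tested genes and open squares for Gch1 and Nos2, which were selected on their values and are not tested. All 20 intervals of the 4 tested genes include 0, and those of Gchfr are the widest.

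Gchfr, the gene of the regulatory protein GFRP, varied more between Q7 replicates than the other 3 tested genes. Its level was 77.0, 39.8 and 47.2 TPM in Q7-C, 26.0, 77.7 and 28.4 TPM in Q7-T, 50.2, 51.0 and 50.3 TPM in Q111-C, and 34.4, 32.9 and 24.6 TPM in Q111-T. The 2 highest values are in Q7-C replicate 1 and Q7-T replicate 2, the libraries that lie near each other over all genes, and the other 2 Q7-T libraries lie below all other Q7 and Q111-C libraries. In Q111 cells the treated and nontreated groups did not overlap, with a ratio of means of 0.606 ± 0.105.

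In Q111-T versus Q111-C the fitted log2 fold change of Gchfr was -0.61 (95% interval -1.84 to 0.62, edgeR adjusted p = 0.547), and the exact permutation p on TPM was 0.1, the smallest that 3 libraries against 3 can give. The spread in this fit is shared by all groups. When only the 6 Q111 libraries entered the fit, the change was -0.61 with an adjusted p of 0.0311, and it was -0.60 with an adjusted p of 0.0191 when Q7-C replicate 1 and Q7-T replicate 2 were left out. Among all genes, 49.6% had groups that did not overlap in this comparison. In Q7 cells the fitted change was 0.02 (-1.20 to 1.25, edgeR adjusted p = 0.995). Without Q7-T replicate 2 it was -1.11 with an adjusted p of 0.127, and the interaction turned from -0.63 to 0.50. Without Q7-C replicate 1 the change in Q7 cells was 0.59 and the interaction -1.20 (edgeR adjusted p = 0.571 and 0.362). The response of Gchfr in Q7 cells thus moved with either of these libraries, and a difference between the lines was not detectable.

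Between the treated lines, Gchfr was at -1.15 (-2.39 to 0.10, edgeR adjusted p = 0.131) in Q111-T versus Q7-T. Without Q7-T replicate 1 it was -1.51 and passed (adjusted p = 0.0486), and without Q7-T replicate 2 it was 0.0048. Between the nontreated lines it was at -0.52 (-1.74 to 0.71, edgeR adjusted p = 0.579) on counts and at 0.05 without Q7-C replicate 1, while the mean TPM was 54.6 ± 19.7 in Q7-C and 50.5 ± 0.420 in Q111-C. Gchfr (ENSMUSG00000046814) lies at chr2:119167773-119172390 on the plus strand.

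Pts, which codes for the enzyme after GCH1, was the gene with the lowest level among the 4. It was at 1.64, 2.48 and 2.07 TPM in Q7-C, 1.95, 2.08 and 1.71 TPM in Q7-T, 3.21, 3.17 and 3.05 TPM in Q111-C, and 3.26, 3.71 and 3.10 TPM in Q111-T. All 6 Q111 libraries lay above all 6 Q7 libraries, and treated and nontreated libraries overlapped in each line. The TPM ratio of Q111-C to Q7-C was 1.52 ± 0.312 and that of Q111-T to Q7-T was 1.76 ± 0.237, each with an exact permutation p of 0.1. Among all genes, 51.4% and 46.3% did not overlap in these 2 comparisons.

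The fitted changes of Pts between lines were smaller than those in TPM. They were 0.30 (-0.27 to 0.87, edgeR adjusted p = 0.479) in Q111-C versus Q7-C and 0.34 (-0.22 to 0.91, edgeR adjusted p = 0.315) in Q111-T versus Q7-T. The comparison of the treated lines passed in 5 of 24 alternatives, among them limma on log2(TPM + 0.5), where it was 0.68 (adjusted p = 0.0126), and the fit without Q7-T replicate 2, where it was 0.70 (adjusted p = 0.0172). The 2 scales are not centred alike. On log2(TPM + 0.5) the median over all genes was 0.27 in Q111-C versus Q7-C and 0.34 in Q111-T versus Q7-T, against -0.02 and -0.03 after TMM scaling. On that TPM scale Pts was at 0.52 and 0.68, above these medians. Treatment gave 0.17 (-0.40 to 0.73, edgeR adjusted p = 0.835) in Q7 cells and 0.21 (-0.36 to 0.78, edgeR adjusted p = 0.675) in Q111 cells. Pts (ENSMUSG00000032067) lies at chr9:50521617-50528724 on the minus strand.

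Spr, which codes for sepiapterin reductase, differed by less than the spread of the libraries between treated and nontreated cells. It was at 17.5 ± 1.60 TPM for Q7-C, 17.2 ± 1.04 for Q7-T, 22.1 ± 0.634 for Q111-C and 21.1 ± 1.95 for Q111-T (mean ± SD, n = 3). Q111-T replicate 2 (18.8 TPM) lay under Q7-C replicate 1 (19.2 TPM), and the other 5 Q111 libraries lay above all 6 Q7 libraries. At each treatment the lines did not overlap in TPM (exact permutation p of 0.1 for each), as was so for 51.4% of all genes without and 46.3% with treatment. On the fitted scale the line differences were -0.01 (-0.56 to 0.53, edgeR adjusted p = 0.981) without and -0.18 (-0.73 to 0.36, edgeR adjusted p = 0.583) with treatment. The treatment responses were 0.20 (-0.35 to 0.74, edgeR adjusted p = 0.785) in Q7 cells and 0.03 (-0.51 to 0.57, edgeR adjusted p = 0.970) in Q111 cells. The direction of these differences changed with the scale, as the TPM ratios of Q111 to Q7 were 1.27 ± 0.122 and 1.23 ± 0.135. Spr (ENSMUSG00000033735) lies at chr6:85130176-85137766 on the minus strand.

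Qdpr, which codes for the reductase that regenerates BH4, had lower TPM values in the treated libraries of both lines. It was at 52.0, 51.9 and 54.6 TPM in Q7-C and 48.5, 43.3 and 41.5 TPM in Q7-T, and at 63.6, 62.9 and 58.5 TPM in Q111-C and 53.0, 48.2 and 49.9 TPM in Q111-T. Treated and nontreated libraries did not overlap in either line, and the ratios of the means were close, at 0.841 ± 0.0725 in Q7 cells and 0.817 ± 0.0538 in Q111 cells (exact permutation p of 0.1 for each). Among all genes, 14.4% and 49.6% did not overlap in these 2 comparisons. The fitted changes were smaller, at -0.04 (-0.47 to 0.40, edgeR adjusted p = 0.959) and -0.19 (-0.62 to 0.25, edgeR adjusted p = 0.609). Median changes of all genes on the TPM scale were -0.16 and -0.10, against 0.003 and -0.005 after TMM scaling.

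Between the lines, Qdpr was at -0.11 (-0.55 to 0.32, edgeR adjusted p = 0.745) without and -0.26 (-0.70 to 0.17, edgeR adjusted p = 0.313) with treatment, whereas in TPM Q111-C lay above Q7-C with no overlap (ratio 1.17 ± 0.0622). Groups did not overlap for 51.4% of all genes in Q111-C versus Q7-C and for 46.3% in Q111-T versus Q7-T. Qdpr (ENSMUSG00000015806, chr5:45434021-45450236, minus strand) shares part of its span with Gm42413 on the opposite strand.

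Pcbd1, which codes for the dehydratase of BH4 recycling, did not pass the filter and was not tested. It was at 0.377, 0.238 and 0.469 TPM in Q7-C (12, 8 and 17 estimated counts). In Q7-T it was listed at 0, 0.245 and 0 TPM, in Q111-C at 0, 0.179 and 0 TPM, and in Q111-T at 0.135, 0.295 and 0 TPM. All libraries of these 3 groups were at or under 12 estimated counts, taken as the limit of detection (about 3 read pairs), so a difference was not detectable at this depth. Pcbd1 (ENSMUSG00000020098) lies at chr10:61089331-61094324 on the plus strand.

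Levels per transcript length could be set against each other within a library, and this was done for the enzyme, its regulatory protein and the next enzyme. These ratios are a description, since they hold Gch1. The Gchfr to Gch1 ratio of TPM was 13.98, 6.54 and 9.18 for Q7-C, 3.98, 18.4 and 5.77 for Q7-T, 78.8, 49.2 and 139.6 for Q111-C, and 4.39, 4.54 and 3.76 for Q111-T. Every Q111-C library lay above every other library, and the Q111-T libraries lay below every Q7-C library, with replicate 3 also below the lowest Q7-T library. The Gch1 to Pts ratio was 2.77 ± 0.510 for Q7-C, 2.75 ± 0.668 for Q7-T, 0.215 ± 0.105 for Q111-C and 2.15 ± 0.230 for Q111-T. The transcript of the first enzyme was thus more abundant than that of the second in 3 of the groups and less abundant in Q111-C.

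**Figure D3:**
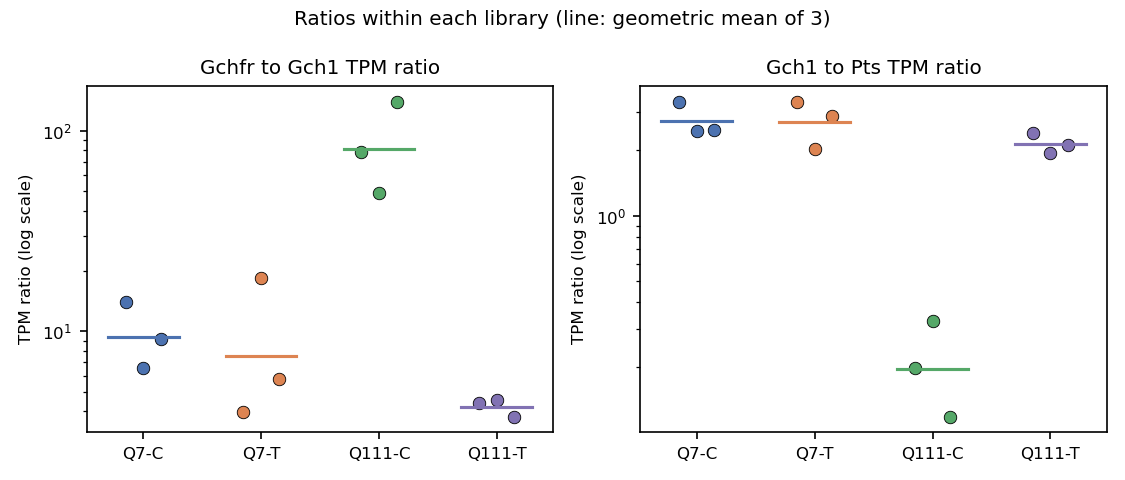
Ratio of Gchfr to Gch1 TPM (left) and of Gch1 to Pts TPM (right) within each library, on log axes, with a point for each library and a line at the geometric mean of 3. In Q111-C the first ratio lies between 49.2 and 139.6, above all other libraries, and the second lies below all others.

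Across the 12 libraries, the log2(TPM + 0.5) values of Gch1 followed those of Nos2 with r = 0.61 and those of Gchfr with r = -0.39, and Gchfr and Nos2 had r = -0.69. These values describe 12 libraries in 4 groups and carry no p, since groups set most of them. Of all genes tested, the 5 most like Gch1 were Basp1, Perp, Gsta1, Stard5 and Egln3 (r = 0.97, 0.97, 0.96, 0.96 and 0.96). Like Gch1, each had its lowest group mean in Q111-C, for example Gsta1, a glutathione S-transferase, at 38.1 TPM for Q7-C, 34.5 for Q7-T, 4.48 for Q111-C and 46.0 for Q111-T. The 5 most like Nos2 were C1s1, Cxcl9, Fas, Ifi202b and Cxcl11 (r = 0.99 to 1.00). They were highest in Q111-T, as for Cxcl9, a chemokine induced by IFNγ, at 1.22 TPM for Q7-C, 101.4 for Q7-T, 1.23 for Q111-C and 515.6 for Q111-T.

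The surrounding pathway was covered by 28 further genes in 4 lists. The other enzymes of BH4 synthesis and recycling reported here were Pcbd2, Akr1b3 and Cbr1, and all 3 were tested. Cbr1, a carbonyl reductase that can take part in BH4 salvage and synthesis, was higher in Q111 cells. It was at 18.01, 15.0 and 15.7 TPM in Q7-C, 12.7, 12.4 and 15.2 TPM in Q7-T, 48.4, 52.1 and 51.9 TPM in Q111-C, and 39.2, 40.6 and 40.4 TPM in Q111-T. The 2 lines did not overlap, as for 51.4% of all genes without and 46.3% with treatment, and the log2 fold changes were 1.29 (edgeR adjusted p = 0.00147) without and 1.15 (edgeR adjusted p = 0.00217) with treatment.

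Akr1b3, an aldo-keto reductase that can stand in for SPR, was the other gene of this list that edgeR called. It was at 38.7 ± 1.25 TPM for Q7-C, 58.0 ± 4.94 for Q7-T, 54.6 ± 2.15 for Q111-C and 44.9 ± 1.54 for Q111-T, and edgeR called it in Q111-T versus Q7-T only (log2 fold change -0.85, edgeR adjusted p = 0.0145). Without Q7-T replicate 2 it was at -0.48 (edgeR adjusted p = 0.0208). The call was lost without Q111-T replicate 1 (-0.78, adjusted p = 0.0581), without Q111-T replicate 3 (-0.81, adjusted p = 0.0519) and with only the 2 treated groups in the edgeR fit (-0.83, adjusted p = 0.0708). Of the 3 genes edgeR thus called 1 higher in Q111-C versus Q7-C, where 11.1% of all genes were called higher, and 1 higher and 1 lower in Q111-T versus Q7-T, where 19.8% were called higher and 18.7% lower. In Q7-T versus Q7-C and in the interaction, edgeR called 0 of these 3 genes, with 1 (Akr1b3) at an unadjusted p under 0.05, and DESeq2 and limma called that gene in both. Among all genes edgeR called 3.61% higher and 1.74% lower in the first of these and 3.94% and 1.75% in the interaction. In Q111-T versus Q111-C edgeR and DESeq2 called 0 of 3 with 0 at an unadjusted p under 0.05, and limma called 0 with 2 (Akr1b3 and Cbr1) at that level, beside 11.3% of all genes called higher and 7.33% lower by edgeR. Limma further called Akr1b3 in Q111-C versus Q7-C and Pcbd2, a paralog of Pcbd1, in Q111-T versus Q7-T. Pcbd2 was at 8.25 ± 2.79 TPM for Q7-C, 5.59 ± 1.92 for Q7-T, 11.4 ± 1.54 for Q111-C and 11.4 ± 3.76 for Q111-T, and in Q111-T versus Q7-T edgeR gave 0.52 (-0.59 to 1.62, adjusted p = 0.438). The median log2 fold change of the 3 was 0.17 in Q111-C versus Q7-C, -0.10 in Q7-T versus Q7-C, -0.18 in Q111-T versus Q111-C, 0.52 in Q111-T versus Q7-T and -0.14 in the interaction.

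Of 6 other users of BH4 none passed the filter. Tph1, Tph2, Nos1, Nos3 and Agmo were in the table at low values, and Th was not matched by name. Among the NO synthases, Nos2 alone was thus expressed above the filter in these cells.

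Of 7 partners of NO synthases, 6 were tested (Nostrin was under the filter). They comprise the calmodulin genes Calm2 and Calm3, Nosip, the enzymes DDAH1 and DDAH2 that break down the methylarginines which inhibit NO synthases, and PRMT1, which makes methylated arginine in proteins. In Q111-C versus Q7-C 3 of 6 were called lower (Calm2, Ddah1 and Ddah2), in Q111-T versus Q7-T 5 of 6 (Calm2, Nosip, Ddah1, Ddah2 and Prmt1) and in Q111-T versus Q111-C 1 of 6 (Ddah2), and edgeR called none higher. Among all genes 11.6%, 18.7% and 7.33% were called lower in these 3 comparisons. In Q111-T versus Q111-C DESeq2 called 2 (Calm3 and Ddah2) and limma 2 (Ddah2 and Prmt1). For Q111-T versus Q7-T DESeq2 called the same 5 genes as edgeR and limma 3 (Calm2, Ddah2 and Prmt1). For Q111-C versus Q7-C DESeq2 called 4 (Calm2, Calm3, Ddah1 and Ddah2) and limma 3 (Calm2, Calm3 and Ddah2). Calm3 was at 0.43 in Q111-C versus Q7-C (edgeR adjusted p = 0.0711), in the opposite direction to Calm2, and DESeq2 and limma called it there. In Q7-T versus Q7-C edgeR called 0 of 6, with 0 at an unadjusted p under 0.05, and DESeq2 and limma called 0. In the interaction edgeR called 0 of 6, with 2 (Ddah2 and Prmt1) at an unadjusted p under 0.05, DESeq2 called 1 (Ddah2) and limma 2 (Ddah2 and Prmt1). The median log2 fold change of the 6 was -0.52 in Q111-C versus Q7-C, -1.11 in Q111-T versus Q7-T, -0.25 in Q111-T versus Q111-C, 0.25 in Q7-T versus Q7-C and -0.40 in the interaction, beside medians over all genes between -0.03 and 0.00.

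Ddah2 was the partner gene with the lowest level in treated Q111 cells relative to the other groups. Its level was 129.1, 101.4 and 89.3 TPM in Q7-C, 102.6, 100.8 and 93.5 TPM in Q7-T, 55.3, 56.5 and 42.9 TPM in Q111-C, and 26.4, 17.9 and 24.1 TPM in Q111-T. The Q7 groups overlapped, Q111-C lay below both and Q111-T below Q111-C. Groups did not overlap for 51.4% of all genes in Q111-C versus Q7-C, 49.6% in Q111-T versus Q111-C and 46.3% in Q111-T versus Q7-T. The log2 fold change was -1.42 in Q111-C versus Q7-C (edgeR adjusted p = 0.00348), -1.09 in Q111-T versus Q111-C (edgeR adjusted p = 0.0191) and -2.59 in Q111-T versus Q7-T (edgeR adjusted p = 5.3e-05). In Q7 cells treatment gave 0.08 (-0.53 to 0.69, edgeR adjusted p = 0.939), and the interaction of -1.17 (-2.04 to -0.30) did not pass (edgeR adjusted p = 0.120). The call in Q111-T versus Q111-C was lost without Q111-C replicate 1, Q111-C replicate 2, Q111-T replicate 2 or Q111-T replicate 3, where the change was between -1.12 and -1.04 with edgeR adjusted p between 0.0561 and 0.0663, and it held without Q7-C replicate 1 and Q7-T replicate 2 (-1.08, adjusted p = 1.3e-04).

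Prmt1 was at 194.2 ± 19.7 TPM for Q7-C, 225.7 ± 39.3 for Q7-T, 196.6 ± 1.01 for Q111-C and 112.5 ± 7.24 for Q111-T. The Q111-T libraries lay below all the others. Non-overlap held for 49.6% of all genes in Q111-T versus Q111-C and for 46.3% in Q111-T versus Q7-T. Prmt1 was called in Q111-T versus Q7-T (log2 fold change -1.50, edgeR adjusted p = 0.00276), while Q111-T versus Q111-C was at -0.70 (edgeR adjusted p = 0.146). Calm2, a calmodulin gene, was at 725.7 ± 76.5, 727.1 ± 77.7, 488.0 ± 19.3 and 441.8 ± 45.7 TPM in the same order of groups, with called line differences of -0.90 (edgeR adjusted p = 0.00480) and -1.13 (edgeR adjusted p = 8.03e-04). Calm2 and Calm3 code for the same protein and have processed copies in the genome, so reads may be split between them.

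Ddah1 was called lower in Q111 cells at -0.70 (edgeR adjusted p = 0.00617) without and -1.10 (edgeR adjusted p = 2.51e-04) with treatment. In TPM the lines overlapped, because Q7-C replicate 1 (42.5 TPM) and Q7-T replicate 2 (49.7 TPM) lay under or among the Q111 libraries (39.0 to 54.1 TPM), while the other 4 Q7 libraries lay between 82.4 and 92.1 TPM. Without these 2 libraries the changes were -0.86 (edgeR adjusted p = 5.64e-05) and -1.10 (edgeR adjusted p = 8.03e-06), while limma on log2(TPM + 0.5) with all libraries gave -0.36 (adjusted p = 0.421) and -0.67 (adjusted p = 0.0918). Nosip in Q111-T versus Q7-T (-0.70, edgeR adjusted p = 0.0308) passed in 15 of 24 alternatives. It was lost without Q7-T replicate 2 (-0.39, edgeR adjusted p = 0.0913) or any 1 of the Q111-T libraries (edgeR adjusted p between 0.0629 and 0.0951).

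**Figure D4:**
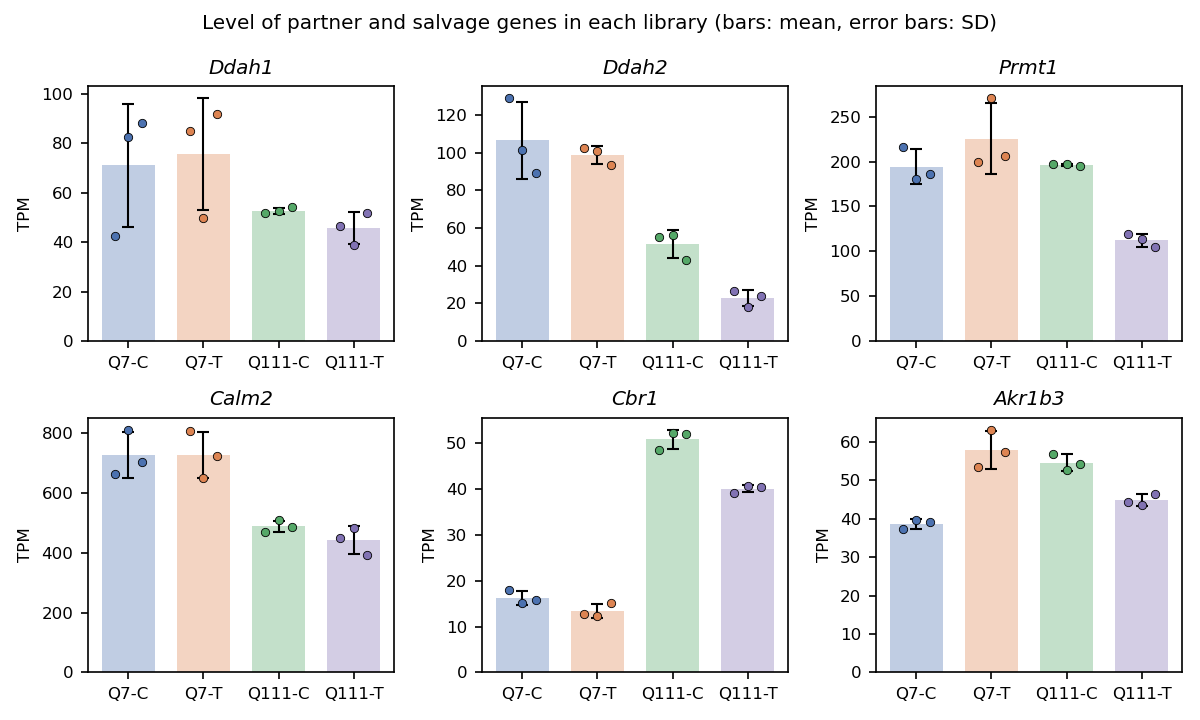
Level (TPM, linear axes from 0) of 4 NO synthase partner genes and 2 further BH4 enzymes in the 4 groups, with a point for each library, bars for the mean of 3 and error bars for the SD. Ddah2 lies at 22.8 TPM and Prmt1 at 112.5 TPM in Q111-T, and Cbr1 lies at 40.1 TPM or above in the mean of both Q111 groups.

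All 12 genes of GTP, NADPH and flavin supply were tested, and edgeR called 2 in Q111-C versus Q7-C, 2 in Q111-T versus Q111-C and 4 in Q111-T versus Q7-T. In Q111-C versus Q7-C, Idh1, a source of NADPH, was higher (log2 fold change 0.80, edgeR adjusted p = 0.00444) and Rfk, riboflavin kinase, was lower (-0.57, edgeR adjusted p = 0.0168). In Q111-T versus Q111-C, Impdh1, which acts in GTP synthesis, was higher (0.49, edgeR adjusted p = 0.0375, passed in 10 of 24 alternatives) and Idh1 was lower (-0.55, edgeR adjusted p = 0.0386). In Q111-T versus Q7-T, Idh1 was higher (0.56, edgeR adjusted p = 0.0204) and 3 genes of guanine nucleotide synthesis were lower, Impdh2 (-0.70, edgeR adjusted p = 0.0206), Nme1 (-1.09, edgeR adjusted p = 0.0324) and Guk1 (-1.07, edgeR adjusted p = 0.0441, passed in 9 of 24 alternatives). Impdh1, which acts in the same synthesis, went the other way in Q111-T versus Q7-T (0.37, edgeR adjusted p = 0.0634), and DESeq2 and limma called it there. Gmps and Nme2 were lower without an edgeR call (-0.37 and -0.81, edgeR adjusted p = 0.0656 and 0.133). Nme1 lies beside its close paralog Nme2, and reads may be split between them. In the same 3 comparisons DESeq2 called 2, 4 and 7 genes and limma 3, 4 and 4, beside a background of 11.1% higher and 11.6% lower, 11.3% and 7.33%, and 19.8% and 18.7% of all genes with edgeR. In Q7-T versus Q7-C edgeR called 0 of 12, with 2 (G6pdx and Pgd) at an unadjusted p under 0.05, DESeq2 called 1 (G6pdx) and limma 0. In the interaction edgeR called 0 of 12, with 5 (Impdh1, Nme1, Me1, Rfk and Flad1) at an unadjusted p under 0.05, DESeq2 called 2 (Impdh1 and Flad1) and limma 2 (Nme1 and Flad1). The median log2 fold change of the 12 was -0.05 in Q111-C versus Q7-C, 0.30 in Q7-T versus Q7-C, -0.20 in Q111-T versus Q111-C, -0.30 in Q111-T versus Q7-T and -0.39 in the interaction.

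Most calls of this last list were lost when 1 of several libraries was left out, in fits with fewer samples. Without Q7-T replicate 2, Nme1 was at -0.54 (edgeR adjusted p = 0.133) and Guk1 at -0.47 (edgeR adjusted p = 0.213) in Q111-T versus Q7-T. Leaving out any 1 of the Q111-T libraries also ended both calls, as did Q111-T replicate 1 or 3 for Impdh2, and Guk1 was further lost without Q7-C replicate 2 or any 1 of the Q111-C libraries. Idh1 lost its call in Q111-T versus Q7-T without Q7-T replicate 3, Q111-T replicate 2 or Q111-T replicate 3, and in Q111-T versus Q111-C without Q7-C replicate 2, any 1 of the Q111-C libraries, Q111-T replicate 1 or Q111-T replicate 3. Impdh1 lost its call without any 1 of the 6 Q111 libraries, Q7-C replicate 3 or Q7-T replicate 3, and Rfk without Q7-C replicate 2, Q7-C replicate 3 or any 1 of the Q111-C libraries. In these fits Impdh1 was between 0.43 and 0.51, Rfk between -0.57 and -0.48 and Impdh2 between -0.67 and -0.64. All these values kept their direction, with edgeR adjusted p between 0.0524 and 0.213. Impdh2 moved farthest without Q7-T replicate 2 (-0.43), where its call held at an edgeR adjusted p of 0.0493.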

How the data were processed

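Gene expression was measured by paired-end sequencing of stranded poly(A) libraries (Illumina NovaSeq) of 12 RNA samples, 3 libraries in each of 4 groups, which were assigned from the sample labels. Per the labels and the methods of the study, the authors trimmed reads with Cutadapt, checked them with FastQC, aligned them to GRCm38 with HISAT2 and quantified genes with StringTie. The deposited table gives TPM values for each gene in each library, as the authors computed them, and unnormalized whole numbers that the authors deposited as estimated counts (57505990 to 96417834 per library). TPM depends on the transcripts that were assembled, so folds in TPM and in counts can differ. Low counts favour multiples of 4, so 1 read pair was taken as about 4 counts, and 12 counts as the limit of detection. This covers counting error only, as the reads carry no molecular identifiers.

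The 16127 genes that reached 0.5 TPM in 3 or more libraries were tested with edgeR's quasi-likelihood test (edgeR 4.0.16, R 4.3.3) on the counts with TMM scaling, in 1 fit of all 12 libraries with a mean per group. The SE and 95% interval of a log2 fold change come from the F statistic of that test. A call was a Benjamini-Hochberg adjusted p under 0.05 over all genes tested, and the threshold of the study added a change of at least 2-fold. Single genes were also compared in TPM as mean ± SD and by two-sided exact permutation tests (scipy 1.17.1), for which 3 libraries against 3 cannot go below 0.1. The alternatives were DESeq2 1.42.0, limma 3.58.1 on log2(TPM + 0.5, 0.1 or 1), RLE size factors, library totals, no filter, a minimum of 1 TPM, counts divided by 4, only the groups compared, a replicate block and leaving out each library. Leaving out Q7-C replicate 1 and Q7-T replicate 2 together was chosen after seeing the data.

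All 7 genes are named, with 28 genes in 4 lists and the 5 genes most correlated with Gch1 and with Nos2. Some genes of these lists are not reported here. The 7 genes and the lists were chosen with earlier results of these data known. The test was checked on simulated counts. No 2 libraries of the same group agreed within sampling noise. Promoter windows are from RefSeq (GRCm38.p6). Tables were handled and plots were drawn in Python 3.11.15 with pandas 2.3.3 and matplotlib 3.10.9.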

Additional observations from a re-analysis of the deposited data

Results flagged for a closer look

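For 4 of the 25 genes tested in the pathway and its lists the treated and nontreated libraries did not overlap in TPM in either line and the 2 lines moved in opposite directions. The same held for 265 (1.64%) of all 16127 genes. In Q7 cells 14.4% and in Q111 cells 49.6% of all genes had groups that did not overlap. The 4 were picked by this pattern, so tests on them are no independent support for it. By edgeR's quasi-likelihood test the interaction did not pass for any of them. Akr1b3 had higher TPM values in Q7-T than in Q7-C and lower ones in Q111-T than in Q111-C (interaction -1.014 on the log2 scale, adjusted p = 0.1045). Flad1, an FAD synthase, was at 8.27 ± 0.257 TPM for Q7-C, 9.44 ± 0.400 for Q7-T, 14.6 ± 0.257 for Q111-C and 9.05 ± 1.39 for Q111-T (interaction -1.011, adjusted p = 0.0792). Nosip had a TPM ratio of treated to nontreated means of 1.12 ± 0.0745 in Q7 cells and 0.919 ± 0.0717 in Q111 cells (interaction -0.412, adjusted p = 0.529). Impdh1 moved the other way, with ratios of 0.764 ± 0.173 and 1.31 ± 0.113 (interaction 0.713, adjusted p = 0.0721). The interaction passed for Akr1b3 and Flad1 with DESeq2 and with limma on log2(TPM + 0.5), for Impdh1 with DESeq2 alone, and for Nosip with neither.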

How the results depend on the processing

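Of the 20 log2 fold changes of Gchfr, Pts, Spr and Qdpr, none passed in the reported fit, and 15 changed sign under some of the 24 alternatives. The cause was not tested. The first comparison named here is that of the nontreated lines (Q111-C versus Q7-C), the second is treatment in Q7 cells, the third is treatment in Q111 cells and the fourth is that of the treated lines.

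With limma on log2(TPM + 0.5), (TPM + 0.1) and (TPM + 1), Spr was at 0.335, 0.342 and 0.327 and Qdpr at 0.22, 0.221 and 0.218 in the first comparison. In the second, Gchfr was at -0.437, -0.442 and -0.431, Pts at -0.077, -0.089 and -0.065 and Spr at -0.019, -0.019 and -0.018. In the third, Spr was at -0.071, -0.072 and -0.069. In the fourth, Spr was at 0.283, 0.289 and 0.276 and Qdpr at 0.181, 0.182 and 0.179, and 1 gene of the 4 was called with each pseudocount (Pts, 0.677, 0.781 and 0.580). With library totals without TMM, Spr was at 0.164 and Qdpr at 0.057 in the first, Gchfr at -0.189 and Pts at -0.0068 in the second, and Spr at -0.045 in the third and 0.073 in the fourth. In the first comparison Spr was at 0.00048 with DESeq2, 0.00041 with RLE size factors, 0.018 with a minimum of 1 TPM and 0.00014 with only the groups compared, a fit that called 1 gene (Gchfr) in the third. Gchfr in the second was at -0.03 with no filter.

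Without Q7-C replicate 1 and Q7-T replicate 2 together, a choice made after seeing the data, Gchfr was at 0.048, Spr at 0.244 and Qdpr at 0.042 in the first comparison, Gchfr at -0.587 and Pts at -0.224 in the second, and Gchfr at 0.036, Spr at 0.196 and Qdpr at 0.025 in the fourth. Then 1 gene was called in the third (Gchfr) and 1 in the fourth (Pts).

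Leaving out 1 library gave ranges in the first comparison of -0.725 to 0.051 for Gchfr, -0.102 to 0.247 for Spr and -0.155 to 0.045 for Qdpr. In the second they were -1.115 to 0.589 for Gchfr, -0.188 to 0.337 for Pts, -0.137 to 0.459 for Spr and -0.283 to 0.121 for Qdpr. In the third, Spr ranged from -0.024 to 0.04. In the fourth, Gchfr ranged from -1.515 to 0.0048 and Spr from -0.349 to 0.164, with 0 to 1 gene called. In the interaction the ranges were -1.197 to 0.504 for Gchfr, -0.152 to 0.395 for Pts, -0.43 to 0.164 for Spr and -0.309 to 0.092 for Qdpr.

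With the replicate block, Gchfr was at -0.159 in Q7-T versus Q7-C, and no call of the 4 genes changed. It ended the calls of Impdh1 in Q111-T versus Q111-C (adjusted p = 0.067) and Guk1 in Q111-T versus Q7-T (adjusted p = 0.0543). Deviations of same-numbered libraries had correlations between -0.582 and 0.45. The labels do not say whether same-numbered libraries were prepared together. These correlations cannot decide it, since the deviations within a group sum to 0.

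Over all genes, DESeq2 called 1183 higher and 797 lower in the interaction (636 and 283 with edgeR) and 891 and 618 in Q7-T versus Q7-C (582 and 280). With only the groups compared edgeR called 317 and 80 there, and 3046 and 2428 in Q111-T versus Q111-C (1828 and 1182). Without Q7-C replicate 1 and Q7-T replicate 2 the counts were 1728 and 1030 in the interaction, 2670 and 2891 in the first comparison, 752 and 628 in the second and 3235 and 2680 in the third. The share of higher calls moved with scaling. Limma on log2(TPM + 0.5) called 2481 higher and 1134 lower in the first comparison (1796 and 1868 with edgeR) and 4303 and 1556 in the fourth (3189 and 3009), and library totals gave 2126 and 1440, and 3715 and 2152. Of the calls in the wider lists, limma on log2(TPM + 0.5) did not make those of Rfk and Ddah1 in the first comparison, Impdh1 in the third, and Nosip, Ddah1, Guk1 and Impdh2 in the fourth. With only the groups compared, those of Akr1b3, Nosip, Guk1, Idh1, Nme1 and Impdh2 were lost in the fourth. All calls in these lists kept their direction in the 24 alternatives.

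Depth limits Pcbd1, which was not tested.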
